A study of Mus musculus with 74 samples.

Results

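The early response of mouse CD4+ T cells to IL-4 was described from the arrays taken at 3, 6, and 12 h after activation. The members were chosen by time point and cell type, with earlier results of these data known. They make up 24 of the 74 arrays, 12 with IL-4 and 12 without. The study followed T helper cell differentiation over 5 days on Illumina Mouse Sentrix-6 bead arrays, with 2 arrays per condition, 1 from each of 2 experiments. All cells were naive CD4+ CD62L-high T cells from pooled spleen and lymph nodes of Balb/c mice aged 5-8 weeks, and all were activated with anti-CD3 and anti-CD28. Th2 cultures contained IL-4 plus neutralising anti-IL-12 and anti-IFN-γ, whereas ThMix cultures, the Th1/2 hybrid of the study, contained both IL-4 and IL-12 but no neutralising antibody. Th0 cultures contained neutralising anti-IFN-γ, anti-IL-4, and anti-IL-12 and no cytokine, and Th1 cultures contained IL-12 plus anti-IL-4. Th2 and ThMix cells were set against Th0 and Th1 cells of the same time point and experiment, so that IL-12, anti-IL-12, and anti-IFN-γ lay equally on both sides. The cultures without added IL-4 also had IL-4 neutralised, and the addition and the neutralisation of IL-4 cannot be told apart here. The difference between the sides is called the IL-4 effect.

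IL-4 binds a receptor made of the IL-4 receptor alpha chain and, in lymphocytes, the common gamma chain. The receptor-bound kinases JAK1 and JAK3 phosphorylate STAT6, which enters the nucleus as a dimer and binds DNA at palindromic sites. In CD4+ T cells this pathway is known for raising GATA3, the transcription factor that directs Th2 differentiation, and for inducing SOCS proteins, which inhibit cytokine receptor signalling.

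Levels are log2 values of the intensities deposited by the authors, and the median of all values is 6.77. The pan-T-cell genes *Cd3e*, *Cd3g*, and *Cd3d* were well above that median on all arrays. *Cd8b1*, a gene of CD8 T cells, had a mean level of 11.68 with IL-4 and 11.80 without, whereas *Cd8a* did not pass the filter on low values, and whether the *Cd8b1* signal came from CD8 T cells was not tested. The ThMix array at 12 h of experiment 1 stood apart from the rest. Its difference from the matched Th1 array had an SD of 0.433 over all genes, against 0.184 to 0.262 in the other 11 matched pairs. On this array 5 genes that earlier results had shown to be low there, among them the elongation factor *Eef2*, had a summed intensity of 1320. On the 12 arrays without IL-4 the sum was 10700 to 20900. Because this array stood apart, results are also given without the 4 arrays at 12 h of experiment 1. Over 3 to 12 h, 0 of the 5 genes were called with all arrays. Without the 4 arrays 3 of them were called higher with IL-4, beside 676 of all 13817 genes. With 12 arrays a side from only 2 experiments, and no label that says the arrays of a condition came from separate animals, p-values measure the spread between these arrays.

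The IL-4 effect reached a large number of genes, most of them by a small amount. Over 3 to 12 h, 631 of 13817 genes were higher with IL-4 (4.57%) and 805 were lower (5.83%) at an adjusted p under 0.05 in limma, 10.4% in all. The median difference of the called genes was 0.25 among the higher and -0.23 among the lower genes on the log2 scale. At least 2-fold differences were seen in 31 higher and 6 lower genes. Of the called genes, 157 higher and 189 lower ones had the same sign in all 12 matched pairs of arrays, and 1.14% of all genes were higher and 1.4% lower in all 12. The levels of the 12 arrays with IL-4 did not overlap those of the 12 arrays without it in 18 of the higher genes (0.13% of all genes) and 5 of the lower genes (0.0362%). Without the 4 arrays, 676 genes were higher and 882 lower, and 545 and 715 of these were called in both fits. The call count was 2299 when the ThMix array at 12 h of experiment 2 was left out, which leaves the array that stood apart alone in its condition.

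**Figure D1:**
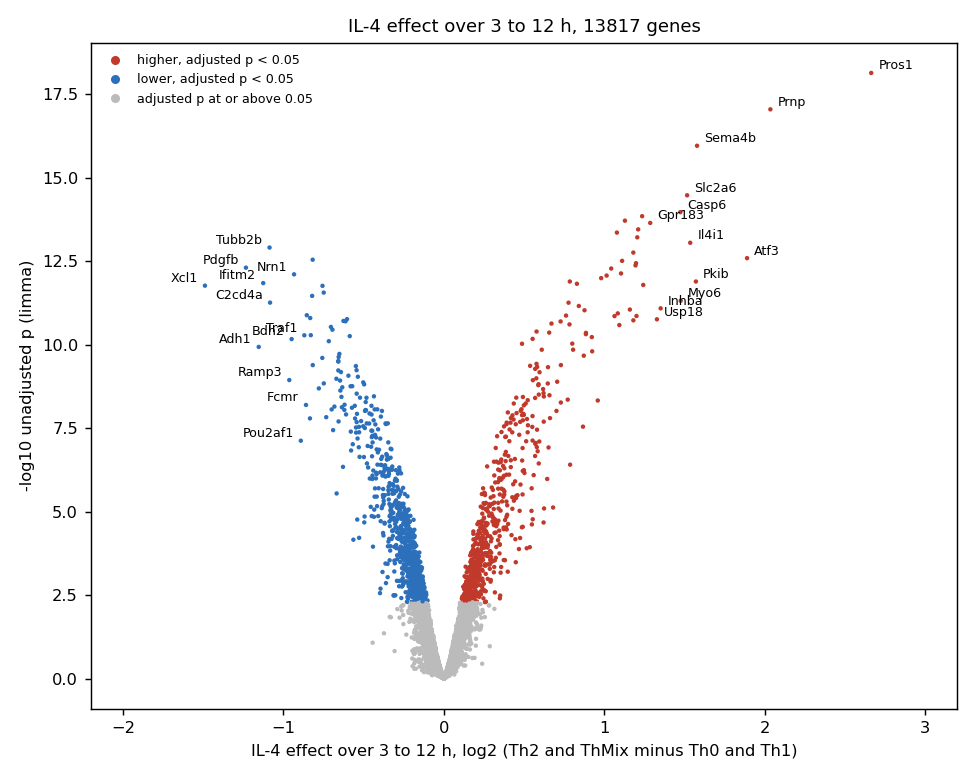
Each point is 1 of 13817 genes, with the IL-4 effect over 3 to 12 h on the x axis (log2, Th2 and ThMix minus Th0 and Th1) and the unadjusted limma p on the y axis (-log10). Red points are the 631 higher and blue points the 805 lower genes, and the 24 labelled genes reach 2.66 on the right (*Pros1*) and -1.49 on the left (*Xcl1*).

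*Pros1* had the largest effect of the 24 named genes. It encodes protein S, a plasma anticoagulant that is also a ligand of TAM receptor tyrosine kinases. At 3 h its level was 9.05 and 9.37 in Th2 cells and 9.37 and 9.01 in ThMix cells, against 7.17 and 7.21 in Th0 cells and 7.26 and 7.34 in Th1 cells, experiment 1 before experiment 2. At 12 h it was 10.96 and 11.51 in Th2 cells and 11.20 and 11.56 in ThMix cells, against 8.00 and 8.04 in Th0 cells and 8.13 and 8.34 in Th1 cells. Every array with IL-4 lay above every array without it, and the distance widened with time. Averaged over the 3 time points, *Pros1* was 6.33-fold higher with IL-4 (log2 2.66 ± 0.05, SE, limma adjusted p = 1.02e-14). Naive cells had a mean level of 7.76.

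STAT dimers bind palindromes, and STAT6 is known for a site of TTC and GAA with 4 bases of any kind between them. Among the 12 named higher genes, 11 had a promoter entry in RefSeq (GRCm38.p6), and the promoters of *Pros1* and *Pkib* held this motif within the window from 250 bases before to 50 bases after the annotated start. They are printed because they hold the motif, which is in capitals.
Pros1, chr16:62854057-62854356, plus strand: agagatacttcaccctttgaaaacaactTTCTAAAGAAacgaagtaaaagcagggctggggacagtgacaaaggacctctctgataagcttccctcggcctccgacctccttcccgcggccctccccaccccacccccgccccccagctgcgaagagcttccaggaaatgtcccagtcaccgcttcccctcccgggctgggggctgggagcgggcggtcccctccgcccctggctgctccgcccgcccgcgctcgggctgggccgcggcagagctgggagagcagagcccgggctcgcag
Pkib upstream start, chr10:57631731-57632030, plus strand: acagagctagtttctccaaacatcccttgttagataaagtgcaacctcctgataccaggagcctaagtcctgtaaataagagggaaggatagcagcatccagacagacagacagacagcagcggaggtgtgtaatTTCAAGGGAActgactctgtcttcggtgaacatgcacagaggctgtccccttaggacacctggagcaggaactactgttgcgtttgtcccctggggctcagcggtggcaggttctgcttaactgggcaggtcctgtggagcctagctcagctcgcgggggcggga
Pkib downstream start, chr10:57645619-57645918, plus strand: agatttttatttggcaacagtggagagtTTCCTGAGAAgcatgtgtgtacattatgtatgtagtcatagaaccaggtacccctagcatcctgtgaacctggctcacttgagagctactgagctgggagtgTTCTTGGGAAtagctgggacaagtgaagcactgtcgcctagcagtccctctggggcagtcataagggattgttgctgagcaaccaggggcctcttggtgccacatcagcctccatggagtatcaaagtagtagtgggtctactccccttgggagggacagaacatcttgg
The motif lay 222 bases before the start of *Pros1*, and 115 bases before the upstream and 222 bases before the downstream start of *Pkib*, where a second copy followed. The motif reads the same on both strands. It was present in 6.95% of 32851 RefSeq promoters of this length. Counting genes with the motif in any promoter, it was present in 11.1% of 506 genes called higher and 4.72% of 657 genes called lower, against 6.69% of 11117 tested genes with an entry, and these shares were not tested. The shorter palindrome with 3 bases between TTC and GAA, known from other STAT proteins, was present in 12.5% of the higher, 9.13% of the lower, and 8.7% of the tested genes. A match is a description of the letters and not a measured binding site.

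*Prnp*, which encodes the prion protein, was the second of the named higher genes. Its level had a median of 12.28 with IL-4 (10.24 to 13.86) and of 10.10 without (9.01 to 11.21). The ranges overlapped over all times, but the effect was positive in 12 of 12 pairs and came to 4.1-fold (log2 2.03 ± 0.05, SE, adjusted p = 6.29e-14). *Atf3*, a stress-inducible transcription factor of the ATF/CREB family, had a median level of 11.28 with IL-4 (9.73 to 12.85) and 9.31 without (8.43 to 10.52), a 3.7-fold difference. For *Sema4b*, a transmembrane semaphorin, the spread within each side was small. Its level was 11.60 to 11.96 with IL-4, against 9.85 to 10.42 without, with no overlap and a 2.98-fold difference. Naive cells had a mean *Sema4b* level of 11.58, so the arrays with IL-4 lay close to the naive level and those without it below.

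*Il4i1*, an L-amino acid oxidase first described as induced by IL-4 in B cells, had a median level of 10.98 with IL-4 (10.01 to 12.82) and 9.38 without (8.63 to 11.09), 2.9-fold higher. Its level differed between the experiments at 3 h, at 12.23 in experiment 1 and 11.06 in experiment 2 for Th2 cells and 11.09 and 9.10 for Th0 cells, while the difference was positive in both. *Pkib*, an inhibitor of protein kinase A, was 2.97-fold higher, and its levels did not overlap (8.02 to 9.80 with IL-4, against 7.07 to 7.82 without). The other probes of *Pkib*, all dim, gave differences of 0.05 to 0.92. *Slc2a6*, a member of the glucose transporter family, was at 8.76 to 9.93 with IL-4, against 7.48 to 8.56 without. *Casp6*, an effector caspase, was at 10.26 to 12.02 with IL-4, against 9.14 to 10.04 without. Neither of these genes overlapped between the sides, and the differences were 2.86-fold and 2.78-fold.

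The remaining named higher genes were *Myo6*, an actin motor, *Inhba*, a subunit of activin, *Usp18*, a protease that removes ISG15 and dampens type I interferon signalling, and *Gpr183*, an oxysterol receptor that guides lymphocyte migration. Their overall differences were 2.78-fold, 2.55-fold, 2.51-fold, and 2.44-fold, each positive in 12 of 12 pairs, as required for being named. The largest part lay at 3 h, where *Inhba* was 5.07-fold higher with IL-4 and *Myo6* 4.56-fold. The adjusted p of all 12 higher genes lay between 1.02e-14 and 4.95e-09, and without the 4 arrays at 12 h of experiment 1 their differences were between 1.25 and 2.72 on the log2 scale.

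**Figure D2:**
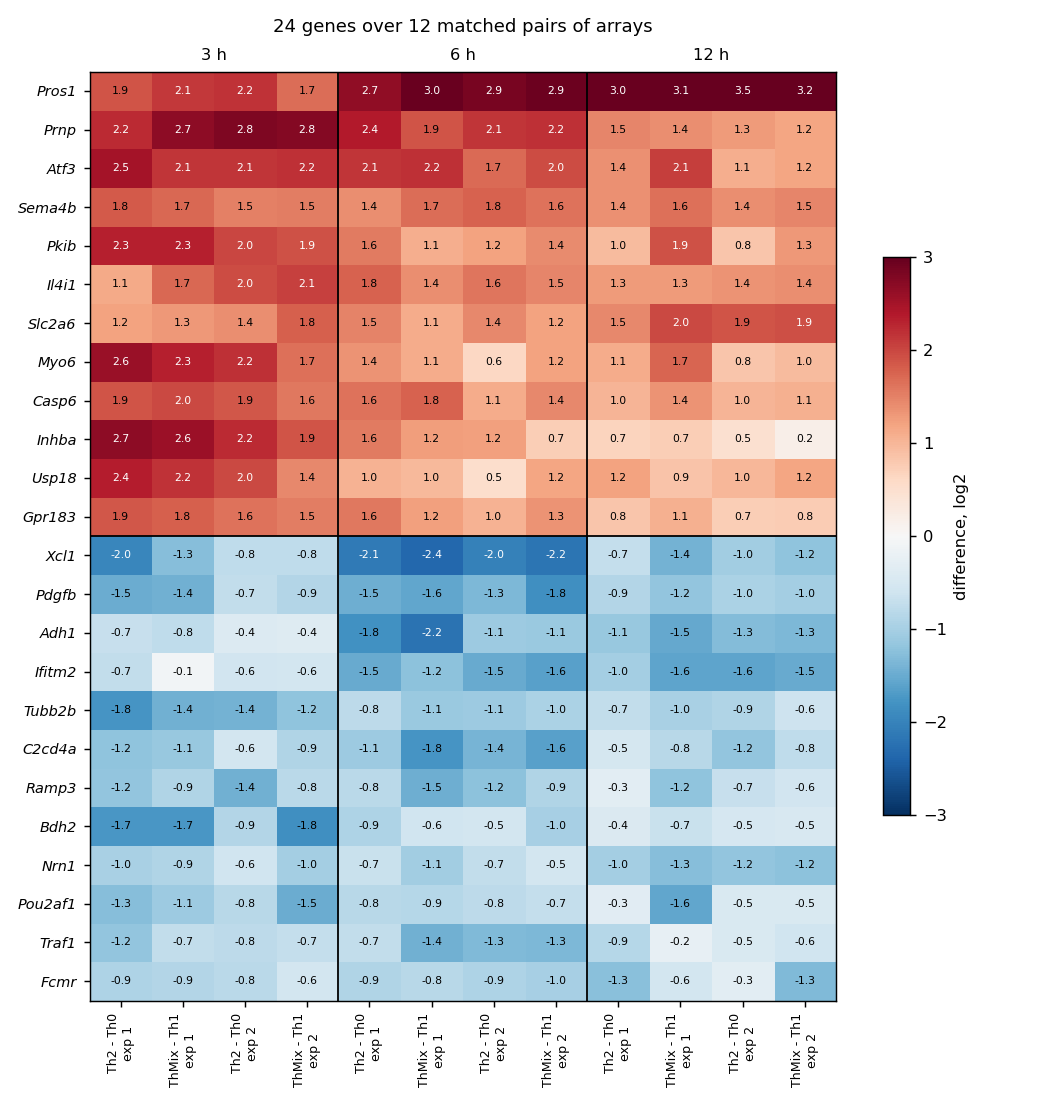
Rows are the 24 named genes and columns the 12 matched pairs of arrays at 3, 6, and 12 h, and each cell is the log2 difference of the array with IL-4 minus its match without IL-4. The 12 upper genes are positive and the 12 lower genes negative in every pair, which was required for their choice. *Pros1* grows from 3 to 12 h while *Inhba* shrinks.

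Among the genes lower with IL-4, *Xcl1* showed the largest difference. It encodes lymphotactin, a chemokine that attracts cross-presenting dendritic cells. At 6 h its level was 10.20 and 9.89 in Th2 cells and 10.13 and 9.74 in ThMix cells, against 12.34 and 11.91 in Th0 cells and 12.48 and 11.93 in Th1 cells. The gene was above the naive mean of 7.11 on all 24 arrays, and it was lower with IL-4 at each time point. Over 3 to 12 h *Xcl1* was 2.81-fold lower (log2 -1.49 ± 0.08, SE, adjusted p = 7.57e-10). *Ccl3*, another chemokine gene, was also lower in 12 of 12 pairs, with a difference of -0.75.

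The other named lower genes encode proteins of several kinds. *Pdgfb*, a growth factor, had a median level of 7.86 with IL-4 (6.84 to 8.71) and 9.18 without (7.62 to 9.58), 2.35-fold lower, whereas its second, dim probe gave a difference of 0.02. *Adh1*, an alcohol dehydrogenase that also oxidises retinol, was at 6.83 to 7.72 with IL-4, against 8.01 to 9.18 without, so its arrays did not overlap, and the naive mean was 9.03. *Traf1*, an adaptor of TNF receptors, likewise did not overlap, at 10.95 to 11.54 with IL-4 and 11.71 to 12.83 without. *Ifitm2*, an interferon-inducible membrane protein, was 2.18-fold lower and *Tubb2b*, a beta tubulin, 2.12-fold. The other 4 *Tubb2b* probes gave differences of -0.03 to -0.55. *Fcmr*, the Fc receptor for IgM, was below the naive mean of 10.40 on every array and lower still with IL-4, at a median of 8.05, against 8.99 without. *C2cd4a*, *Ramp3*, an accessory protein of calcitonin-family receptors, *Bdh2*, a dehydrogenase, *Nrn1* (neuritin), and *Pou2af1*, a coactivator of octamer-binding factors, were 1.85-fold to 2.12-fold lower. The second, dim probe of *C2cd4a* gave a difference of -0.02, and the other *Ramp3* probes gave -0.47 and -0.82. The adjusted p of the 12 lower genes lay between 1.33e-10 and 4.78e-06.

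**Figure D3:**
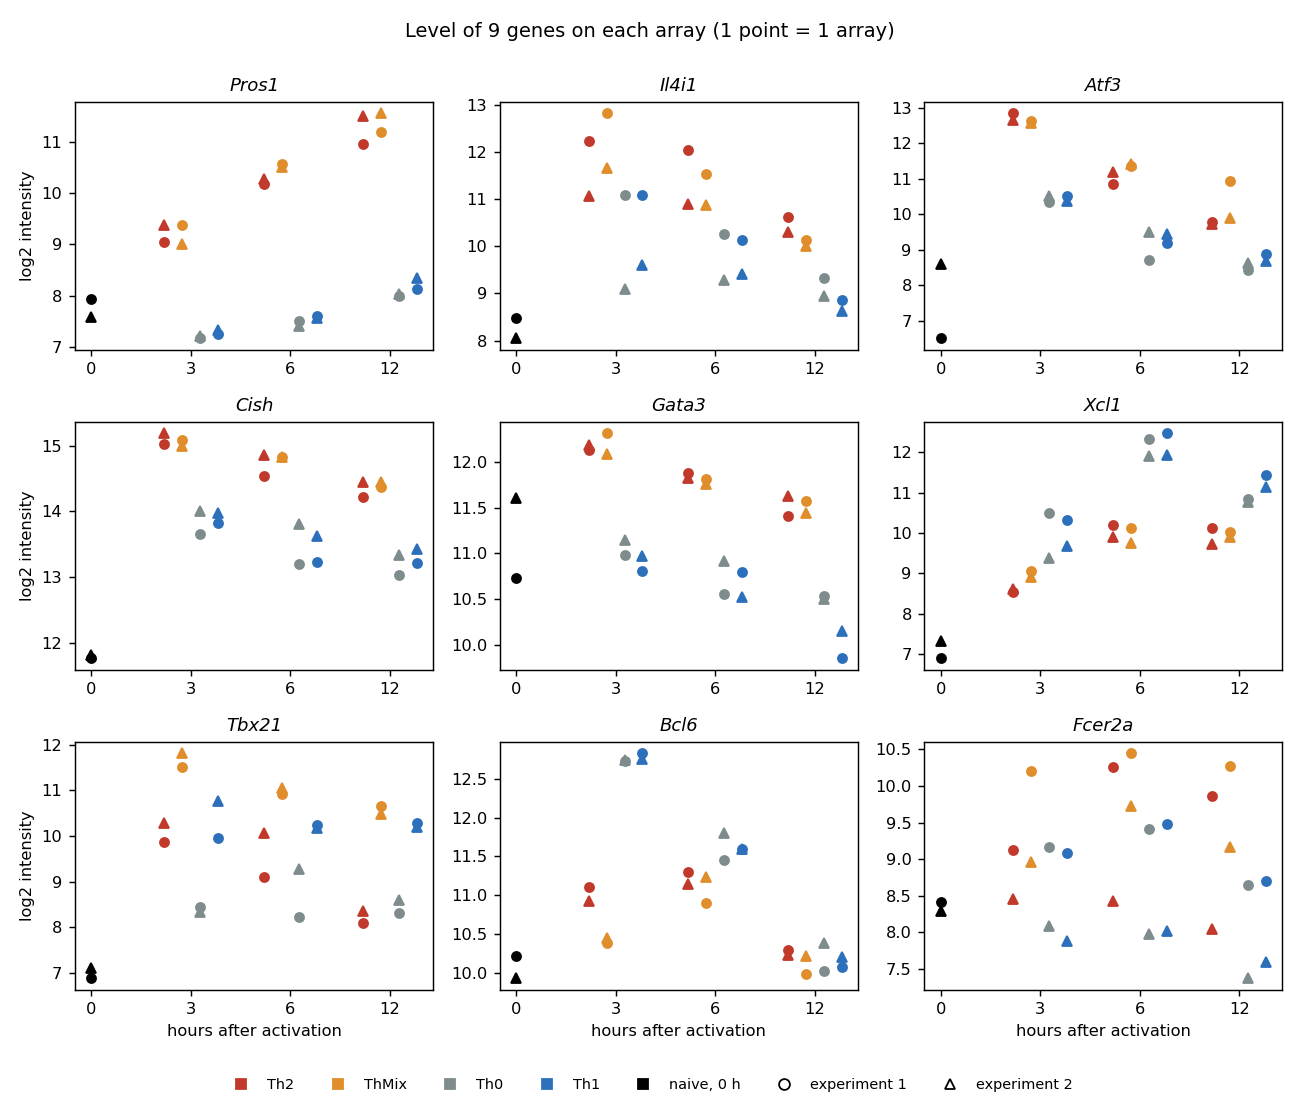
The level of 9 genes is plotted on each array (log2 intensity) at 0, 3, 6, and 12 h, with circles for experiment 1 and triangles for experiment 2, and naive cells in black. *Pros1*, *Cish*, and *Gata3* are higher in Th2 (red) and ThMix (orange) than in Th0 (grey) and Th1 (blue) cells at all 3 times. The sides differ at 3 h for *Tbx21* (1.49) and *Bcl6* (-2.04), and by 0.06 and 0.01 at 12 h. At 12 h *Tbx21* is lower in Th2 than in Th0 cells and higher in ThMix than in Th1 cells.

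Of the 9 tested genes of the receptor, its kinases, and STAT6, 2 were higher and 1 lower with IL-4. The list median was -0.05, beside -6e-04 over all genes. For this and the later list counts over 3 to 12 h, 4.57% of all genes were higher and 5.83% lower. Whether a list departed from these shares was not tested. The lower gene, *Tyk2* (log2 -0.14), was not called without the 4 arrays at 12 h of experiment 1. *Il4ra*, the IL-4 receptor alpha chain, had a median level of 8.77 with IL-4 (7.78 to 9.58) and 8.15 without (7.51 to 8.82), and its difference was 0.59 ± 0.06 (SE, adjusted p = 4.98e-06). *Jak3* was higher at 3 h by 0.63, and its values at 6 and 12 h were 0.18 and -0.12. The common gamma chain was not analysed here. Of 8 SOCS family genes, which encode feedback inhibitors, 3 were higher and 1 lower (median 0.05). *Cish*, a STAT5-induced inhibitor of this family, was at 14.22 to 15.19 with IL-4, against 13.03 to 14.01 without, with no overlap, and was higher by 1.21 at 3 h, 1.30 at 6 h, and 1.11 at 12 h. *Socs1* was higher in 12 of 12 pairs by 0.89 ± 0.06 (SE), and *Socs3* was higher by 0.86 at 3 h, with a value of 0.16 at 12 h. *Socs5* was lower in all 12 pairs (log2 -0.24, adjusted p = 0.000696).

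Of 16 tested Th2-linked transcription factors, 6 were higher and 2 lower with IL-4 (median 0.10). *Gata3* had a level of 12.13 and 12.19 in Th2 cells and 12.32 and 12.09 in ThMix cells at 3 h, against 10.98 and 11.15 in Th0 cells and 10.81 and 10.97 in Th1 cells. At 12 h it was 11.41 and 11.63 in Th2 cells and 11.57 and 11.44 in ThMix cells, against 10.53 and 10.50 in Th0 cells and 9.85 and 10.15 in Th1 cells. The arrays did not overlap, and the effect was 1.20, 1.12, and 1.25 at 3, 6, and 12 h. The levels on both sides were lower at 12 h than at 3 h, so the distance was kept while the level fell. Naive cells had *Gata3* levels of 10.73 and 11.61. At 12 h the arrays without IL-4 lay below both naive levels, and those with IL-4 lay near the higher one. *Gfi1*, a transcriptional repressor that supports Th2 cell growth, was higher by 0.58, and *Batf*, an AP-1 factor, by 0.73, with 1.03 at 3 h. *Notch1*, *Rbpj*, the DNA-binding partner of Notch, and *Xbp1* were also higher, by 0.36, 0.34, and 0.23. *Bhlhe40* and *Zbtb32*, a repressor known to restrain GATA3, were lower, with differences of -0.44 and -0.54.

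Of 11 tested Th2 cytokines and receptors, 4 were higher and 2 lower (median 0.04). The chemokine receptors *Ccr8* and *Ccr4*, known from Th2 cells, were higher in 12 of 12 pairs, by 0.84 and 0.59. *Ccr8* had a mean naive level of 6.96 and reached 9.94 to 11.01 with IL-4 and 8.89 to 10.37 without. *Il4* itself was at 9.31 and 11.14 in Th2 cells and 9.54 and 11.48 in ThMix cells at 3 h, against 9.30 and 10.99 in Th0 cells and 8.85 and 11.16 in Th1 cells. The experiments lay further apart than the sides, and the overall difference of 0.25 (adjusted p = 0.0185) was not called at any of the 3 time points by itself. Over all alternatives its adjusted p was 0.00203 to 0.938. *Csf2*, which encodes GM-CSF, was lower, with a difference of -0.38. Of 7 gamma-chain cytokine genes and receptors, 3 were higher and 1 lower (median 0.03). *Il21*, a cytokine of follicular helper and Th17 cells, was higher in 12 of 12 pairs by 0.57, and *Il2* was lower in all 12, with a difference of -0.37.

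Of 18 tested Th1 genes, 2 were higher and 6 lower over 3 to 12 h (median 0.05). *Tbx21*, which encodes T-bet, the transcription factor that directs Th1 differentiation, was one of the higher genes. At 3 h its level was 9.87 and 10.29 in Th2 cells and 11.51 and 11.82 in ThMix cells, against 8.44 and 8.34 in Th0 cells and 9.96 and 10.78 in Th1 cells. Within each matched pair IL-4 went with a higher level, by 1.49 ± 0.16 (SE, adjusted p = 1.26e-05) over the 4 pairs. At 12 h the level was 8.10 and 8.36 in Th2 cells and 8.31 and 8.59 in Th0 cells. It was 10.65 and 10.48 in ThMix cells and 10.28 and 10.20 in Th1 cells. Th2 cells lay below Th0 cells and ThMix cells above Th1 cells in both experiments. The difference of 0.06 at 12 h averaged these opposite signs. The difference of *Tbx21* over 3 to 12 h between ThMix and Th1 cells and Th2 and Th0 cells was 1.76. These cells differ in added IL-12, anti-IL-12, and anti-IFN-γ together, and the 3 cannot be told apart. This contrast was called higher in 94 of all genes (0.68%) and lower in 29 (0.21%), 0.89% in all. *Ifng* had a difference of 0.41 at 3 h and -0.22 at 12 h, and its overall value of 0.17 (adjusted p = 0.0384) was not called in 20 of 35 alternatives (adjusted p 0.00341 to 0.937). *Cxcr3*, a chemokine receptor of Th1 cells, was lower in 12 of 12 pairs (log2 -0.72). *Lta*, which encodes lymphotoxin alpha, *Eomes*, a T-box factor, and *Il18r1*, a subunit of the IL-18 receptor, were lower in 12 of 12 pairs as well, with differences of -0.54, -0.45, and -0.42. *Stat4*, which transmits the IL-12 signal, had a value of 0.19 at 3 h and was lower (log2 -0.62) at 12 h.

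Lists of interferon-stimulated genes were examined at each time. Of 25 tested type I interferon-stimulated genes, 14 were higher and 0 lower at 3 h (3.89% and 5.47% of all genes). At 6 h 1 was higher (1.93%), and at 12 h 1 was higher and 0 lower (1.59% and 1.22%). Over 3 to 12 h, 9 were higher and 1, *Rsad2*, was lower. The list median was 0.40 at 3 h and 0.05 at 12 h, beside -0.01 and 0.01 over all genes, and in the test of the difference 0 of the 25 genes had a higher and 7 a lower effect at 12 h than at 3 h, beside 2.74% and 1.92% of all genes. At 3 h *Stat2*, *Irf9*, and *Irf7*, transcription factors of the type I interferon pathway, were higher by 0.85, 0.68, and 0.61, and *Parp14*, a mono-ADP-ribosyltransferase that also binds STAT6, by 0.80. *Usp18* was at 10.70 and 11.00 in Th2 cells and 11.10 and 11.31 in ThMix cells at 3 h. It was at 8.34 and 9.03 in Th0 cells and 8.94 and 9.88 in Th1 cells. It was the gene of this list that was still higher at 12 h. Naive cells had *Usp18* levels of 10.35 and 10.24. All arrays without IL-4 lay below these levels, and at 12 h those with IL-4 did too. Of 19 IFN-γ-induced GTPases and genes of MHC class I presentation, 6 were higher and 0 lower over 3 to 12 h, with 8 higher at 3 h and 0 at 12 h, where 1 was lower. *Gbp2*, a guanylate-binding GTPase, was higher by 1.30 at 3 h and had a value of -0.03 at 12 h. *Gbp5* was higher by 0.68 at 3 h and lower (log2 -0.59) at 12 h. *Tap1*, a subunit of the peptide transporter, was higher by 0.64 at 3 h. Th2 cells and the Th0 cells they were matched with had anti-IFN-γ, and ThMix and Th1 cells had none.

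Genes of other T helper lineages split by gene. Of 16 tested Tfh, Th17, and Treg genes, 3 were higher and 4 lower (median -0.01). *Bcl6*, the repressor that directs follicular helper differentiation, was at 11.11 and 10.92 in Th2 cells and 10.39 and 10.45 in ThMix cells at 3 h, against 12.73 and 12.74 in Th0 cells and 12.83 and 12.75 in Th1 cells. The sides were far apart at 3 h, 4.12-fold (log2 -2.04 ± 0.08, SE, adjusted p = 3.5e-10), and at 12 h the difference was 0.01. *Rora* and *Ccr6*, genes of Th17 cells, were lower in 12 of 12 pairs, with differences of -0.59 and -0.58. *Il6ra*, *Icos*, and *Tgfbr1*, which encode receptors for IL-6, a costimulatory ligand, and TGF-β, were higher in 12 of 12 pairs by 0.41, 0.35, and 0.27.

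Of 18 tested genes of naive and quiescent T cells, 2 were higher and 7 lower (median -0.04). *Id3*, an inhibitor of E proteins, was lower in 12 of 12 pairs (log2 -0.65), *Ccr7*, the receptor for lymph node homing, was lower (log2 -0.50), and *Satb1*, a chromatin organiser, was higher by 0.31. Of 17 tested immediate early and activation genes, 3 were higher and 1 lower (median 0.00), and *Cd44*, an activation marker, was higher in 12 of 12 pairs by 0.58. Of 11 survival and death genes, 1 was higher and 2 lower (median -0.04), beside 4.57% and 5.83% of all genes. The higher gene was *Bcl2*, an inhibitor of apoptosis, at 11.71 and 11.57 in Th2 cells and 11.39 and 11.65 in ThMix cells at 3 h, against 10.27 and 10.21 in Th0 cells and 10.34 and 10.31 in Th1 cells. The *Bcl2* arrays were clearly separate at 3 h (1.30), and the value at 12 h was 0.12. Naive cells had *Bcl2* levels of 11.05 and 11.43, so the arrays without IL-4 lay below the naive level at 3 h. Of 13 genes of glycolysis and amino acid uptake, 0 were higher and 1, the glucose transporter *Slc2a3* (log2 -0.16), was lower (median 0.03).

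Genes known as IL-4 targets in B cells and myeloid cells were also measured. Of 9 B-cell IL-4 genes, 6 were higher and 0 lower (median 0.43), with medians of 0.26 at 3 h and 0.40 at 12 h. *Fcer2a*, which encodes the low-affinity IgE receptor CD23, was at 9.86 and 8.04 in Th2 cells and 10.27 and 9.17 in ThMix cells at 12 h, against 8.65 and 7.37 in Th0 cells and 8.70 and 7.60 in Th1 cells. Experiment 1 was higher than experiment 2 in every condition, and within each experiment the cells with IL-4 were higher. *Cd74*, the invariant chain, was higher by 0.59, *H2-Eb1* and *H2-Ab1*, chains of MHC class II, by 0.49 and 0.48, and *Ciita*, the class II transactivator, by 0.43. Of 12 myeloid IL-4 genes, 3 were higher and 0 lower, namely *Il4i1*, the chemokine *Ccl17* (0.62), and *Tgm2*, a transglutaminase (0.49), with a list median of 0.05. Whether the signals of these B-cell and myeloid IL-4 genes came from T cells or from other cells in the cultures was not tested.

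Markers of other cells were examined beside these genes. Of 4 tested B-cell markers, *Cd79b* was higher by 0.49 and *Fcmr* lower (log2 -0.86), and *Pax5* did not pass the filter. The summed intensity of the B-cell markers was 641 to 2110 with IL-4 and 663 to 2100 without. Of 7 tested myeloid markers, 0 were higher and 1, *Fcgr3* (log2 -0.12), was lower, with sums of 884 to 1800 with IL-4 and 892 to 1850 without, and *Itgam* and *Itgax* did not pass the filter. Of 2 tested NK cell markers, *Klrd1* was lower (log2 -0.61), with sums of 460 to 729 with IL-4 and 495 to 814 without, and *Ncr1* did not pass the filter. The single CD8 marker tested, *Cd8b1*, was not called over 3 to 12 h but was lower at 3 h (log2 -0.42), and the 2 erythroid markers were not called. *Fcgr3* was not called without the 4 arrays at 12 h of experiment 1. Of 6 T-cell markers, 0 were higher and 3 lower (2 without those arrays, *Cd3d* being lost). At 3 h 5 of the 6 were lower, beside 5.47% of all genes, and *Cd4* differed by -0.46, *Cd3g* by -0.42, and *Cd3d* by -0.33. The summed intensity of the 6 T-cell markers was 41300 to 57000 with IL-4 and 41100 to 69700 without. The part of these markers in the 3 h results was not tested, and fewer cells of a type and less RNA per cell cannot be told apart in bulk samples.

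The response was broadest at 3 h. At 3 h, 538 genes were higher and 756 lower (9.37% in all), at 6 h 266 (1.93%) were higher and 309 (2.24%) lower (4.16% in all), and at 12 h 219 were higher and 169 lower (2.81% in all). Of the genes called higher over 3 to 12 h, 84 were called at all 3 times, 197 at 3 h alone, 43 at 6 h alone, and 53 at 12 h alone. Of those called lower, 68 were called at all 3 times and 299 at 3 h alone. In a test of the difference itself, the effect at 12 h exceeded that at 3 h in 379 genes (2.74%) and was below it in 265 (1.92%), 4.66% in all. The effect became smaller in size in 508 of these genes and larger in 136. Without the 4 arrays at 12 h of experiment 1, fewer genes were called at 12 h, where only 1 array per condition was left. When the ThMix array at 12 h of experiment 2 was left out, the call counts became 2127 at 12 h and 2161 for the difference between the times, and leaving out the Th1 array at 3 h of experiment 1 gave 807 at 3 h and 368 for the difference.

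*Rragd*, a Rag GTPase of the amino acid-sensing mTORC1 pathway, had the largest difference between the times among the named genes. At 3 h its level was 10.12 and 10.09 in Th2 cells and 10.06 and 10.04 in ThMix cells, against 7.46 and 7.89 in Th0 cells and 7.60 and 7.78 in Th1 cells. At 12 h it was 7.33 and 7.64 in Th2 cells and 7.56 and 7.59 in ThMix cells, against 7.18 and 7.71 in Th0 cells and 7.28 and 7.18 in Th1 cells. The 4 arrays with IL-4 and the 4 without it were separate at 3 h and overlapped at 12 h, with effects of 2.40 and 0.19 and a difference between the times of -2.21 ± 0.14 (SE, adjusted p = 1.99e-07). *Sft2d2*, *Emp1*, a membrane protein, and *Abcb1b*, a drug efflux transporter, showed differences of -1.73, -1.57, and -1.53. *Emp1* was higher at 3 h by 0.37 and lower at 12 h (log2 -1.20). In all, 18 genes were called at both times with opposite signs.

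In the other direction, the effect on *Crabp2*, a retinoic acid-binding protein, appeared late. At 3 h its level was 6.75 to 6.98 with IL-4 and 6.68 to 6.78 without, near the median of all values. At 12 h it was 10.18 and 10.34 in Th2 cells and 10.66 and 10.44 in ThMix cells, against 8.74 and 8.47 in Th0 cells and 8.95 and 8.56 in Th1 cells. Its effect was 0.17 at 3 h, 1.65 at 6 h, and 1.73 at 12 h, a difference of 1.56 between 12 and 3 h (adjusted p = 3.76e-06). *Pde2a*, a phosphodiesterase, and *Lgals7*, a galectin, were lower with IL-4 at 3 h (log2 -1.01 and -0.84) and higher at 12 h by 0.56 and 0.48. *Pou2f2*, an octamer-binding factor, was lower at 3 h (log2 -0.59) and higher at 12 h by 0.65, where the ThMix array of experiment 1 was at 11.64 and the other 3 arrays with IL-4 were between 10.43 and 10.84.

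The IL-4 effect was measured in the presence and in the absence of IL-12. The cells with IL-12 (ThMix and Th1) also lacked the anti-IL-12 and anti-IFN-γ of those without it (Th2 and Th0), and the parts of IL-12 and of these antibodies in any difference cannot be told apart. Between Th2 and Th0 cells, 337 genes were higher (2.44%) and 506 lower (3.66%), 6.1% in all, and between ThMix and Th1 cells 412 were higher (2.98%) and 406 lower (2.94%), 5.92% in all. These comparisons share no arrays. Of the genes called over both, 630 of 631 higher and 805 of 805 lower ones had the same sign in each comparison, which describes the selection on their average. Pearson's r across all genes was 0.66, with genes not being independent replicates. The difference between the effects with and without IL-12 was called in 0 genes in limma, with a smallest adjusted p of 0.24, and 1103 genes (7.98%) had an unadjusted p under 0.05. The 95% interval of this difference reached a median of 0.20 to either side on the log2 scale, so differences of up to this size were within the error for a typical gene. For *Pros1* the effect was 2.66 both with and without IL-12, and the interval of the difference ran from -0.25 to 0.24. Among the 24 named genes the largest difference was 0.27 in size, in *Pou2af1*. This value includes the ThMix array at 12 h of experiment 1, which was at 10.28 against 11.83 in Th1 cells. In experiment 2 these levels were 10.88 and 11.33. For *Fcer2a*, named here after its values were seen, the effect was 1.33 with and 0.58 without IL-12, and the difference of 0.75 (0.37 to 1.13) had an adjusted p of 0.528. The 0 calls became 1185 when the ThMix array at 12 h of experiment 2 was left out, and 1 when that of experiment 1 was left out.

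**Figure D4:**
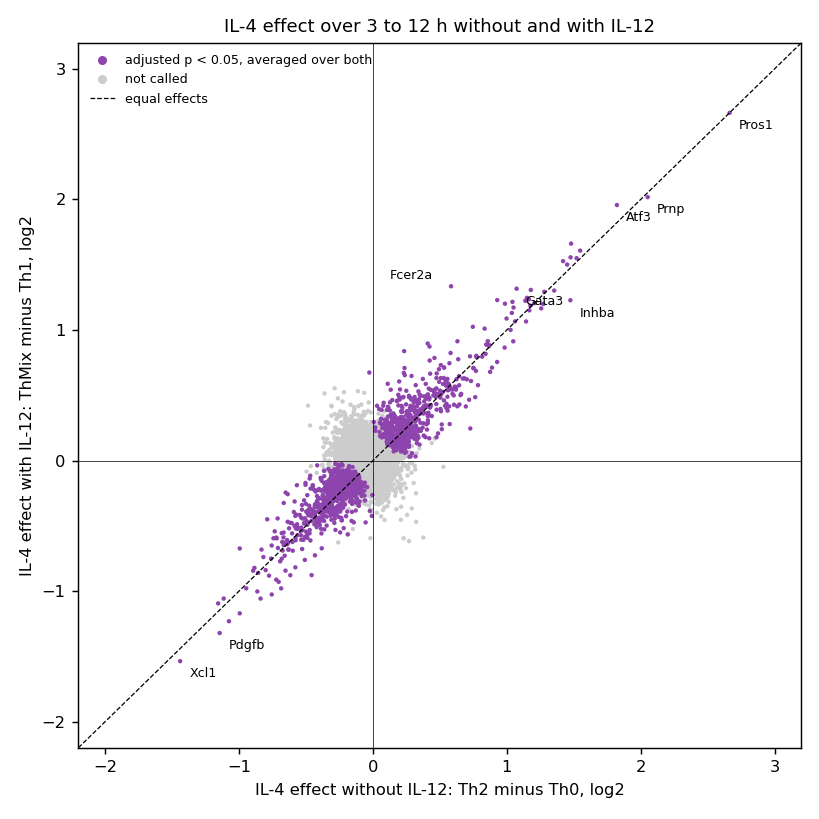
Each point is a gene, with the IL-4 effect without IL-12 on the x axis (Th2 minus Th0, log2) and with IL-12 on the y axis (ThMix minus Th1, log2), averaged over 3 to 12 h, where the cells without IL-12 also had anti-IL-12 and anti-IFN-γ. Called genes (purple) lie along the dashed line of equal effects, with *Pros1* at 2.66 on both axes, and *Fcer2a* lies above the line at 1.33 with and 0.58 without IL-12.

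The 16 arrays at 24 and 35 h, which share no array with the early ones, were used to follow the effect. At these times 1133 genes were higher (8.2%) and 1185 lower (8.58%) with IL-4, 16.8% in all. Of the genes called over 3 to 12 h, 46.3% of the higher and 45.3% of the lower ones were called in the same direction at 24 and 35 h, and 36 of each were called in the opposite direction. Pearson's r between the early and the later effect was 0.51 across all genes. In the test of the difference, the later effect exceeded the early one in 663 genes (4.8%) and was below it in 633 (4.58%), 9.38% in all.

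Both directions are shown by the genes named for this difference. *Gata3*, *Myo6*, and *Il4* had larger effects later, at 2.93, 4.14, and 2.61 over 24 and 35 h. The differences from the early effects were 1.73, 2.67, and 2.36. *P2ry1*, a purinergic receptor, was higher at 12 h by 0.87 and at 24 and 35 h by 2.13. At 3 and 6 h all its levels lay just below the median of all values, at 6.27 to 6.64. At 12 h the ThMix array of experiment 1 was at 7.94, and the other arrays with IL-4 were at 6.80 to 7.49. *Akr1c18*, a steroid dehydrogenase, was lower early (log2 -0.31) and higher later by 1.69. In the other direction, *Ccl3*, *Nrn1*, *Ifng*, *Rgs1*, a regulator of G protein signalling, and *Tal2* had later effects of -2.84, -2.66, -1.86, -1.33, and -2.21. *Rgs1* was higher at 3 h by 0.97, and *Tal2* was near the median of all values early, at 6.50 to 6.86 with IL-4 and 6.52 to 7.06 without. *Pros1* kept an effect of 3.92 at 24 and 35 h, while that of *Usp18* was 0.19 and not called. Of the type I interferon-stimulated genes, 0 were higher and 12 of 25 lower with IL-4 at 24 and 35 h. Of the IFN-γ-induced GTPases and class I genes, 0 were higher and 5 of 19 lower. Over all genes, 8.2% were higher and 8.58% lower at these times.

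**Figure D5:**
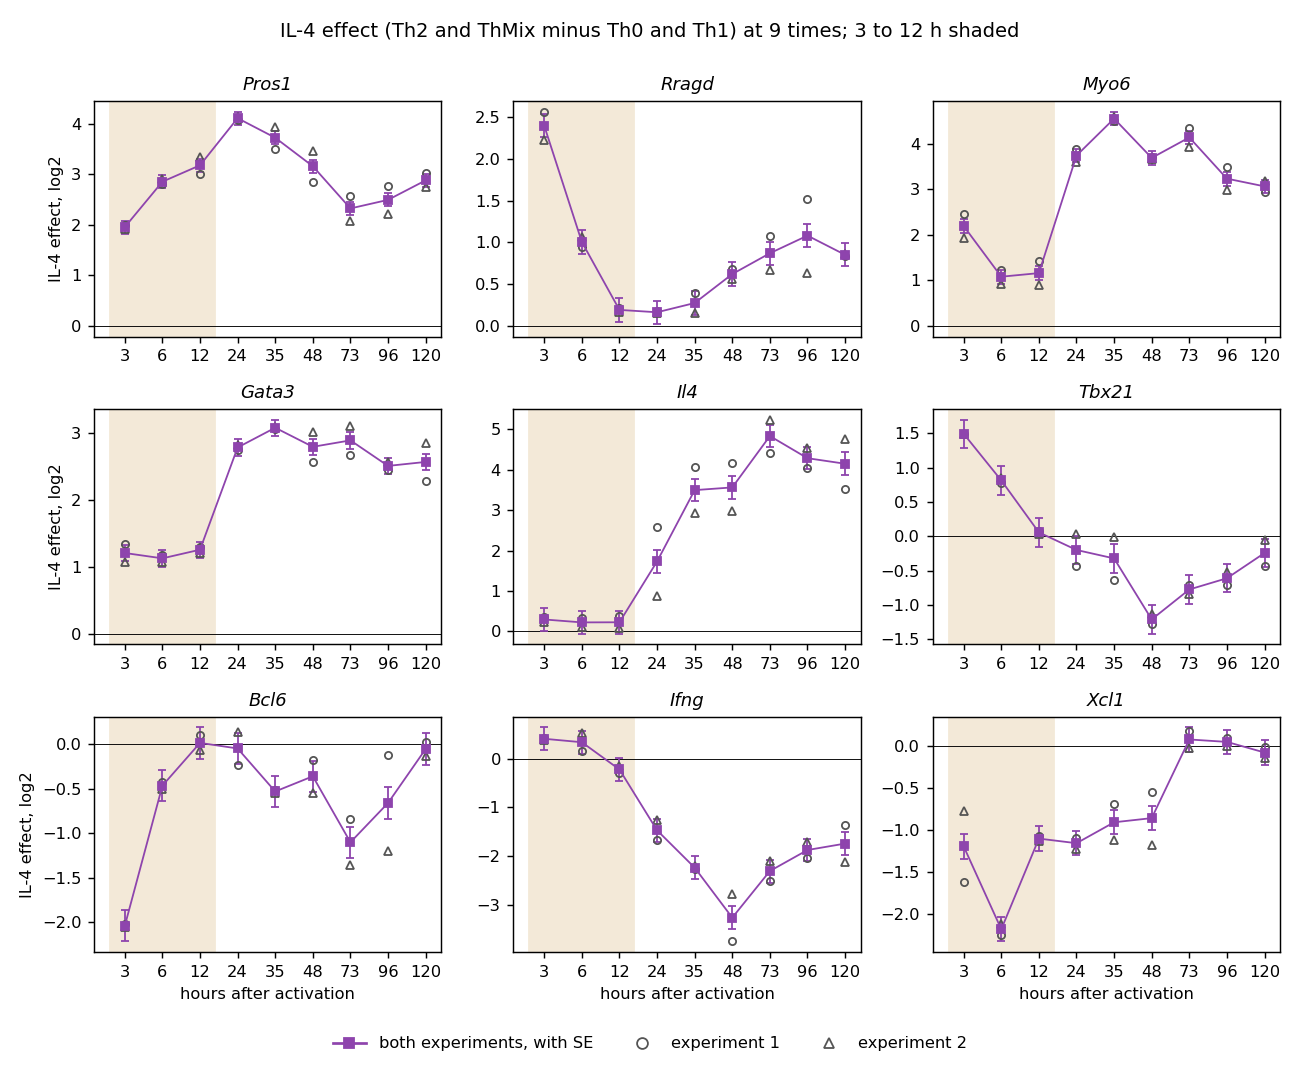
The IL-4 effect (Th2 and ThMix minus Th0 and Th1, log2) is plotted against the time after activation for 9 genes at 9 times, with squares and SE bars for both experiments, and circles and triangles for experiments 1 and 2. The shaded times are 3 to 12 h, where *Rragd* falls to 0.19 by 12 h and *Bcl6* returns to 0.01, and *Il4* and *Ifng* reach 3.50 and -2.24 at 35 h.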

How the data were processed

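Expression was measured with bead arrays in 74 samples, of which the 24 arrays at 3, 6, and 12 h were analysed, with 16 arrays at 24 and 35 h and 2 arrays of naive cells beside them. The values deposited by the authors are normalized probe intensities on a linear scale (55.8 to 69892, array medians 107 to 111). Background correction and quantile normalization between arrays are described in the study, and software versions were not given in the sources at hand. The values were transformed to log2 and otherwise kept as deposited. Normalization between arrays removes any change that all genes share. The number of arrays limits the precision. Probes were named from the platform annotation, with 34773 probes of 45135 carrying 1 symbol, 18 several, and 10344 none. A probe was kept where a condition mean exceeded the median of all values, and the brightest probe stood for a gene.

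The fit (R 4.3.3, limma 3.58.1) had a mean per condition and an experiment term at each time point, which left 9 residual degrees of freedom, and p was adjusted over 13817 genes by the Benjamini-Hochberg method. Arrays of the same time point and experiment deviated together, with a median correlation of 0.60 over 18 pairs (0.01 to 0.68), and the study states 2 independent experiments. Genes were called at an adjusted p under 0.05. Named genes were the 12 with the largest effect in each direction among called genes with 1 sign in all 12 pairs, the 5 with the largest difference in each direction for the tests between times, and members of 22 gene lists. Those named outside this rule were chosen after their values were seen. The members and lists were chosen with earlier results of these data known, and the list of genes low in 1 array was taken from such results. List genes without a row were not analysed here. The fit was tested on simulated data. Alternatives changed the arrays, normalization, filter, probe choice, variance model, and block. The promoter sequences are those of RefSeq, GRCm38.p6.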

Additional observations from a re-analysis of the deposited data

Results flagged for a closer look

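The 20 genes below were named for the largest differences in each direction among genes called between time points, which fixed their number. Other list members were called as well, among them 7 of 25 type I interferon-stimulated genes with a lower effect at 12 h than at 3 h. In the 20 genes, the IL-4 effect differed between time points by a test of the difference itself. From 3 h to 12 h it differed (12 h minus 3 h, log2) by 2.06 in *Bcl6*, 1.57 in *Pde2a*, 1.56 in *Crabp2*, 1.32 in *Lgals7*, 1.24 in *Pou2f2*, -2.2 in *Rragd*, -1.82 in *Inhba*, -1.73 in *Sft2d2*, -1.57 in *Emp1*, and -1.53 in *Abcb1b*. Between 24 and 35 h and the early times it differed by 2.67 in *Myo6*, 2.36 in *Il4*, 2.0 in *Akr1c18*, 1.78 in *P2ry1*, 1.73 in *Gata3*, -2.09 in *Ccl3*, -2.09 in *Tal2*, -2.03 in *Ifng*, -1.76 in *Rgs1*, and -1.73 in *Nrn1*.

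Among the 24 named genes, 1 of the 4 arrays of a side at a time point lay far from the other 3 in 4 of 144 groups examined, where chance gives about 1 in 20. At 12 h the ThMix array of experiment 1, which stood apart in general, was at 10.95 in *Atf3* (the other arrays with IL-4 at 9.73 to 9.89) and at 11.95 in *Sema4b* (11.60 to 11.64). At 6 h the ThMix array of experiment 1 was at 13.51 in *Gpr183* (13.73 to 13.75), and the Th2 array of experiment 1 was at 9.04 in *Tubb2b* (8.62 to 8.68).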

How the results depend on the processing

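The direction of the 110 named genes and list members called over 3 to 12 h, and of the 20 differences between times, did not reverse under any alternative that was run. All were chosen as called in these same arrays, and the 24 named genes for 1 sign in all 12 pairs. A reversal was thus unlikely from the start, and its absence describes the selection. Without the 4 arrays at 12 h of experiment 1, 125 of these 130 values kept their side of the threshold and 5 lost it, namely those of *Bak1*, *Cd3d*, *Fcgr3*, *Tnf*, and *Tyk2*. Counted over each value and setting, the call was kept 940 times and lost 100 times under the other alternatives, kept 3117 and lost 163 times with 1 array left out, and kept 173 and lost 87 times with 1 experiment alone. The 209 calls at 12 h in that setting compare with 388 in all arrays. The experiment block mattered for the number of calls. With no replicate block, the calls were 657 over 3 to 12 h (307 higher and 350 lower), 524 at 3 h, 199 at 6 h, 117 at 12 h, 256 between Th2 and Th0 cells, 305 between ThMix and Th1 cells, 113 for the difference between 12 and 3 h, and 430 for that between 24 and 35 h and 3 to 12 h. With the experiment number as a single replicate block they were 957 (522 lower), 733, 331, 199, 434, 481, 244, and 620, in the same order. Array weights gave 228 calls at 12 h. With all 72 arrays after 0 h in the fit, 3 genes were called for the difference between the effects with and without IL-12. With at least 1.5-fold required, 131 genes were called over 3 to 12 h (77 higher and 54 lower), and with at least 2-fold 37 (31 and 6).

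Leaving out single arrays gave 1194 to 2299 calls over 3 to 12 h (521 to 1030 higher, 652 to 1269 lower), 807 to 1767 at 3 h, 390 to 864 at 6 h, 211 to 2127 at 12 h, 563 to 1348 between Th2 and Th0 cells, 539 to 2526 between ThMix and Th1 cells, 0 to 1185 for the difference with IL-12, 368 to 2161 for that between 12 and 3 h, and 1035 to 1729 for that between later and early times. The highest counts came from leaving out a ThMix array at 12 h. In experiment 1 alone, with fewer arrays in the fit, the counts in this order were 289 (140 higher, 149 lower), 376, 148, 63, 70, 96, 0, 60, and 204, and in experiment 2 alone 739 (333 higher, 406 lower), 711, 397, 205, 404, 275, 0, 208, and 531. Among single arrays, calls at 12 h were 211 without the Th0 and 228 without the Th1 array of experiment 1 and 228 without the Th2 array of experiment 2, and the difference between 12 and 3 h had 368 to 429 calls without the Th0, Th1, Th2, or ThMix array at 3 h of experiment 1 and 396 without the Th2 array at 12 h of experiment 2. The Th2 and Th0 comparison had 1348 and the 6 h comparison 864 calls without the one or the other ThMix array at 12 h, and without the Th1 array at 3 h of experiment 1 there were 807 calls at 3 h and 539 for ThMix and Th1 cells. The cause of these shifts was not tested.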
